A study of Saccharomyces cerevisiae with 6 samples.

Results

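The 6 annotated genes of 5S rRNA in the budding yeast genome, RDN5-1 to RDN5-6, were examined on their own strand in native elongating transcript sequencing (NET-seq) libraries. They were taken by name from the R64 annotation and are 6 of 6395 genes counted, the other 6389 lying outside the rDNA repeats. All 6 lie on chromosome XII, where RDN5-1 is annotated at 459676 to 459796 and RDN5-6 at 489349 to 489469. Both are 121 bases long. RDN5-2 (468813 to 468931), RDN5-3 (472465 to 472583), RDN5-4 (482045 to 482163) and RDN5-5 (485697 to 485815) are annotated 119 bases long from the same first base.

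5S rRNA is made by RNA polymerase III from a gene with an internal promoter, with the factors TFIIIA (Pzf1 in yeast), TFIIIC and TFIIIB. The primary transcript runs into a T-rich terminator past the mature end, the La protein Lhp1 binds such tails, and the exonuclease Rex1 trims them. The finished RNA joins Rpl5 and Rpl11 as the 5S RNP and enters the large ribosomal subunit. In yeast each rDNA repeat holds a 5S gene between neighbouring 35S genes, read in the opposite direction from the 35S gene of RNA polymerase I (Pol I).

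NET-seq maps the 3′ end of RNA that copurifies with a polymerase, and here the polymerase was Pol I, pulled down through an HA tag on its second-largest subunit Rpa135. The rpa12Δ strain carried a full deletion of RPA12, which encodes a small Pol I subunit with a role in RNA cleavage and termination, and it was derived from the HA-tagged WT strain. Both strains therefore carried tagged Rpa135, and 3 libraries of each came from early log-phase cultures. The 5S RNA is not a product of the tagged enzyme, and whether its ends in these libraries belong to nascent RNA, to copurified mature RNA or to fragments of it cannot be told apart from the files.

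The rpa12Δ libraries held 13588526 to 14634449 reads and the WT libraries 4344302 to 6755222, so that counts in rpa12Δ rest on more reads. RPA12 itself had 0, 0 and 1 read ends in the rpa12Δ libraries and 8, 9 and 3 in the WT libraries. Its partner gene RPA135 had 589, 444 and 430 in the rpa12Δ libraries and 212, 169 and 152 in the WT libraries. Own-strand 5S read ends numbered 172651, 202161 and 182526 in the rpa12Δ libraries and 93522, 78774 and 64939 in the WT libraries, when summed over positions 1 to 121 of the 6 genes.

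The level of 5S read ends depended on what it was divided by. Per 1000000 reads outside the rDNA, the 6 genes together had 35524, 43246 and 38734 read ends in the rpa12Δ libraries and 56215, 55116 and 55704 in the WT libraries. All 3 rpa12Δ libraries lay below all 3 WT libraries. The log2 difference was −0.51 (SE 0.09, 95% interval −0.70 to −0.33, limma adjusted p = 0.000316). Over the 2902 genes tested outside the rDNA the median log2 difference on this scale was −0.26, and 873 of them had a lower one than 5S. Relative to that median the 5S sum was at −0.26.

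Per 1000000 read ends in the 35S gene, the same genes had 40025, 51242 and 45602 in the rpa12Δ libraries and 42194, 46592 and 46224 in the WT libraries. These values overlapped, and the log2 difference was 0.014 (95% interval −0.29 to 0.32, limma adjusted p = 0.951). The change of denominator moved the median of all tested genes by 0.50 on the log2 scale, to 0.24. A share of this kind does not separate fewer 5S ends from more of the reads it is divided by.

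The other products of RNA polymerase III gave another yardstick within each library. There were 0.548, 0.627 and 0.588 own-strand 5S ends for each end in a nuclear tRNA gene in the rpa12Δ libraries, against 0.883, 0.887 and 1.05 in the WT libraries. The groups did not overlap and the log2 ratio differed by −0.67 (exact two-sided permutation test, p = 0.1, the smallest that 3 libraries against 3 can give). When SCR1, RPR1, SNR6 and SNR52 replaced the tRNA genes, the log2 difference was −0.28 (exact p = 0.1). SNR52 and SCR1 dominated that pool. In the gene and the next 50 nt, the WT libraries had 13101 to 18094 SNR52 ends and 2852 to 4704 SCR1 ends. RPR1 had 81 to 125 there and SNR6 65 to 94. Relative to reads outside the rDNA, SNR52 fell (log2 difference −0.47) and SCR1 rose (0.45). The pooled value therefore depends on their mix, and 5S was not tested against each RNA alone.

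The sum over the genes joined 2 classes of ends that behaved differently. Ends within 5 nt of the mature 3′ end (positions 116 to 126, counted from the first base of the gene) numbered 17797, 21286 and 18109 per 1000000 reads outside the rDNA in the rpa12Δ libraries and 36944, 36966 and 37610 in the WT libraries. Ends inside the gene (positions 1 to 115) numbered 17815, 22064 and 20716 in the rpa12Δ libraries and 19488, 18341 and 18296 in the WT libraries. The ends near the mature 3′ end were lower in every rpa12Δ library, while the groups overlapped for the internal ends. The log2 difference was −0.97 (SE 0.09, limma adjusted p = 1.14e-06) near the mature end and 0.11 (95% interval −0.10 to 0.31, limma adjusted p = 0.419) inside the gene. Without rpa12Δ replicate 1 the internal ends were called higher (log2 difference 0.19, adjusted p = 0.0455), and without each of the other libraries they were not. With distinct intervals counted once they were called lower (−0.60, adjusted p = 5.23e-05).

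**Figure D1:**
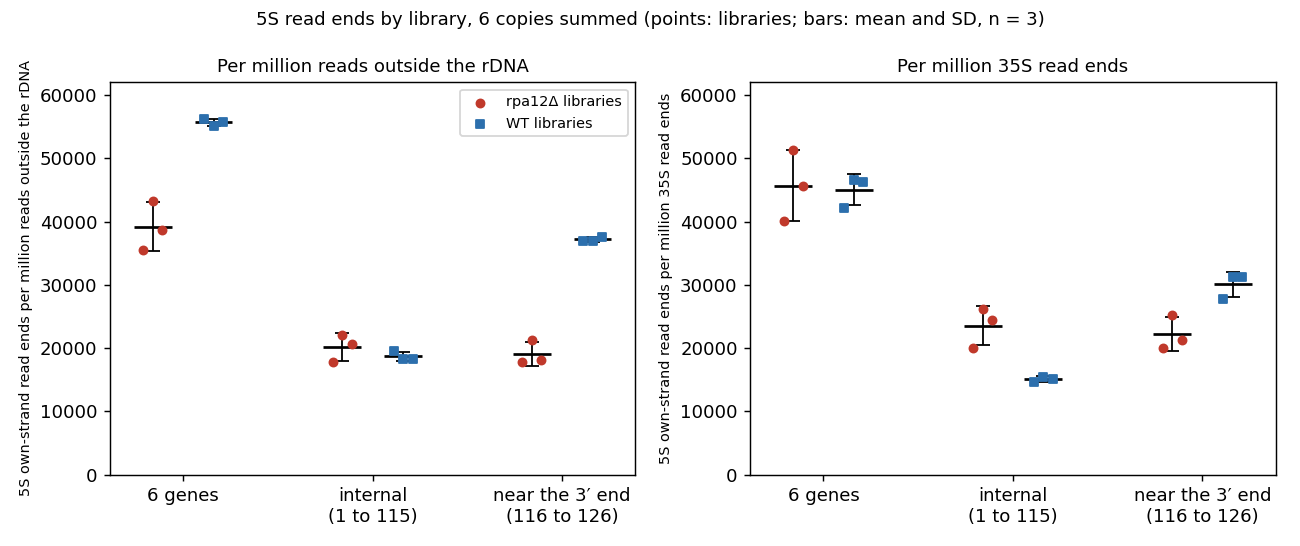
Own-strand 5S read ends in each library, 6 copies summed, per 1000000 reads outside the rDNA (left) and per 1000000 35S read ends (right), with rpa12Δ libraries as circles, WT libraries as squares and the mean and SD (n = 3) in black. On both scales the rpa12Δ libraries lie below the WT libraries near the 3′ end, and on the right they lie above them inside the gene.

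Per 1000000 35S read ends both classes moved. Near the mature end the rpa12Δ libraries had 20052, 25221 and 21320 and the WT libraries 27730, 31249 and 31210, a log2 difference of −0.44 (limma adjusted p = 0.0150). That call was lost without WT replicate 2 (adjusted p = 0.0668), without WT replicate 3 (0.0725) or without rpa12Δ replicate 3 (0.0825). Inside the gene the rpa12Δ libraries had 20072, 26143 and 24390 and the WT libraries 14627, 15505 and 15183, a log2 difference of 0.63 (limma adjusted p = 0.000900), with no overlap between the strains. Distinct intervals counted once gave 0.20 (adjusted p = 0.0148). Relative to the median of all tested genes, with every read counted, the mature-end class was at −0.71 and −0.69 on the outside and 35S scales. The internal class was at 0.36 and 0.39. Subtracting the median takes out the change of denominator, so the match between the 2 scales follows from the arithmetic and is not a second result.

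As a share of the ends in the gene and the 50 nt after it, ends near the mature 3′ end made up 49.9%, 49.0% and 46.6% in the rpa12Δ libraries and 65.4%, 66.8% and 67.2% in the WT libraries. This share needs no denominator from outside the gene. The groups did not overlap and the difference was −18.0 percentage points (exact two-sided permutation test, p = 0.1, the smallest possible). With distinct intervals counted once it was −3.20 percentage points. Internal ends took up the balance with 49.9%, 50.8% and 53.3% in the rpa12Δ libraries and 34.5%, 33.1% and 32.7% in the WT libraries. There were 1.00, 1.04 and 1.14 internal ends for each end near the mature end in the rpa12Δ libraries, against 0.527, 0.496 and 0.486 in the WT libraries.

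Position 121, the last base of the mature RNA, was the highest position of the gene in both strains. It held 449142, 437915 and 414095 per 1000000 ends of the 5S genes in the rpa12Δ libraries and 582511, 599307 and 604855 in the WT libraries. The log2 difference was −0.46 (SE 0.04, limma adjusted p = 2.46e-07), and no rpa12Δ library reached the WT range. The 2 positions before it followed the same direction. Per 1000000 ends of the 5S genes, position 120 averaged 17315 ± 1652 in rpa12Δ and 23082 ± 433 in WT libraries, and position 119 averaged 14336 ± 820 in rpa12Δ and 18950 ± 391 in WT libraries (mean ± SD of 3 libraries).

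Of 129 positions tested in the gene and its flanks, 79 were higher in rpa12Δ (61.2%) and 13 were lower (10.1%) as shares of the 5S ends (limma, adjusted p under 0.05). Because these are shares of one total, the drop at position 121 raises the share of every other position. Of the 99 internal positions tested, 73 were higher and 4 lower. Of the 11 positions near the mature end, 0 were higher and 9 lower, and the 2 others did not pass the limma threshold. Past position 126, 6 of 18 were higher and 0 lower at the same threshold.

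The 5 largest rises among called positions that averaged at least 1000 per 1000000 ends of the 5S genes in either strain were at positions 95, 30, 79, 49 and 25. Position 95 had 17048, 13921 and 19361 per 1000000 ends of the 5S genes in the rpa12Δ libraries and 3172, 2643 and 2775 in the WT libraries, a log2 difference of 2.54 (SE 0.12, limma adjusted p = 6.46e-10). Position 79 had 14656, 11069 and 11620 in the rpa12Δ libraries and 3683, 3300 and 3251 in the WT libraries (log2 difference 1.86). Position 49 had 22108, 25753 and 24232 in the rpa12Δ libraries and 7356, 7233 and 7667 in the WT libraries (log2 difference 1.69). At each of these positions the lowest rpa12Δ library was above the highest WT library. Position 30 averaged 2472 ± 463 in rpa12Δ and 468 ± 100 in WT (log2 difference 2.41), and position 25 averaged 1192 ± 56 in rpa12Δ and 475 ± 172 in WT (log2 difference 1.40, SD, n = 3 each). Positions 30 and 25 reached the minimum of 1000 only in rpa12Δ, the strain in which they were high. With distinct intervals counted once, positions 95, 30 and 79 differed by 0.72, 0.90 and 0.44, position 25 was not called (0.32, limma adjusted p = 0.138) and position 49 was called lower (−0.19, adjusted p = 0.00255).

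The 5 largest falls were at positions 117, 38, 37, 114 and 121. Position 117 averaged 4974 ± 471 in rpa12Δ and 9299 ± 725 in WT libraries (mean ± SD of 3), a log2 difference of −0.90. Position 38 had 3625, 3350 and 3464 in the rpa12Δ libraries and 6164, 5260 and 5382 in the WT libraries, a log2 difference of −0.68 (limma adjusted p = 5.25e-05). It was an internal position that fell although its class took a larger share. The log2 differences at positions 37 and 114 were −0.59 and −0.58. Positions 37 and 114 reached the minimum of 1000 only in WT, the strain in which they were high. The call at position 37 was lost without WT replicate 3 (limma adjusted p = 0.0567).

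**Figure D2:**
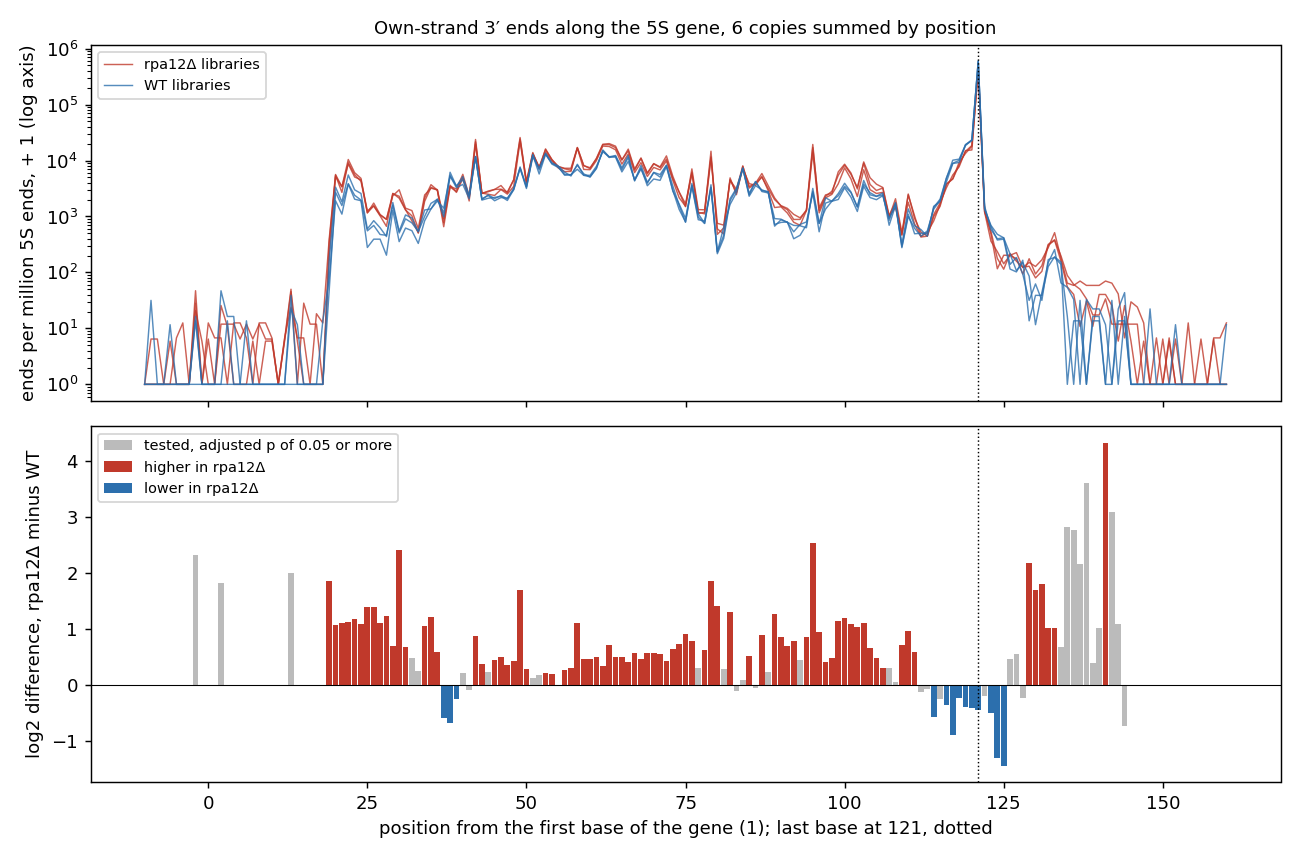
Top, own-strand 3′ ends per 1000000 ends of the 5S genes (log axis, with 1 added) at each position from 10 nt before the gene to 39 nt after its last base, 1 line per library. Bottom, the log2 difference of rpa12Δ minus WT at the positions tested, coloured where the limma adjusted p was under 0.05. The peak at position 121 is lower in rpa12Δ, and single sharp rises stand at positions 30, 49, 79 and 95 when every read is counted.

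Dividing by the internal ends alone takes the mature end out of the total. On that scale, which was added after the first values were seen, 24 of 104 internal positions were higher (23.1%) and 27 lower (26.0%). Position 95 averaged 32645 ± 4670 per 1000000 internal ends in rpa12Δ and 8555 ± 613 in WT (log2 difference 1.92), and position 49 averaged 46839 ± 3392 in rpa12Δ and 22205 ± 1111 in WT (log2 difference 1.08, SD, n = 3 each). Positions 30 and 79 differed by 1.79 and 1.24 on the log2 scale. Position 38 averaged 6789 ± 416 in rpa12Δ and 16738 ± 1024 in WT, a log2 difference of −1.30. The 4 sharp rises had been picked among the largest in these same libraries, so that they exceeded the general gain of internal ends follows from that choice. With every read counted, ends inside the gene were spread differently among positions.

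The order of the internal positions was nevertheless close in both strains. Over the 96 positions from 20 to 115, Spearman's rho between libraries was 0.983 to 0.990 within a strain and 0.913 to 0.942 between strains. These positions share their sequence and library preparation, and the coefficients are given as a description. The stretch from position 47 to 69 held the most internal ends, with 23.0%, 25.4% and 25.6% of ends in the gene and the next 50 nt in the rpa12Δ libraries and 17.3%, 17.6% and 17.3% in the WT libraries. The stretch from 93 to 115 held 8.16%, 6.38% and 7.99% in the rpa12Δ libraries and 4.05%, 3.87% and 3.54% in the WT libraries. From position 1 to 23 the shares were 2.33%, 2.55% and 2.33% in the rpa12Δ libraries and 1.39%, 0.899% and 1.06% in the WT libraries.

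Read length bounds what the first stretch can hold. The shortest 5S read was 20 nt in every library, so a read that begins inside the gene cannot end before position 20. Only 92, 90 and 71 ends lay before it in the rpa12Δ libraries and 18, 12 and 8 in the WT libraries. The median length of reads ending inside the gene was 28 to 29 nt in rpa12Δ and 27 to 28 nt in WT, and of reads ending near the mature end it was 28 nt in all 6 libraries. No read covered all 121 bases, the longest being 85 to 91 nt in rpa12Δ and 77 to 78 nt in WT.

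The far ends of the reads, which are the 5′ ends of the sequenced RNA pieces, also held a marked site. Of reads ending inside the gene, 10.3%, 10.1% and 8.39% began at position 1 or at the base just before it in the rpa12Δ libraries, against 7.66%, 4.95% and 6.63% in the WT libraries. The groups did not overlap. For reads that ended near the mature 3′ end, the commonest far end was position 97, in 12.7% to 13.4% of them in rpa12Δ and 13.3% to 16.1% in WT. Most reads therefore sampled short pieces of the RNA, and the reads that ended at position 121 did not show where the RNA began.

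The 6 copies did not receive equal counts. Per 1000000 reads outside the rDNA, RDN5-1 had 11705, 14045 and 12339 read ends in the rpa12Δ libraries and 21316, 21253 and 21415 in the WT libraries, and RDN5-6 had 11668, 14120 and 12332 in the rpa12Δ libraries and 21172, 20863 and 21330 in the WT libraries. RDN5-2 to RDN5-5 averaged 3410 to 3477 in rpa12Δ and 3253 to 3369 in WT. RDN5-1 and RDN5-6 fell, with log2 differences of −0.75 and −0.74 (limma adjusted p = 1.31e-05 and 1.74e-05), and the 4 shorter annotations did not pass the threshold, with log2 differences of 0.040 to 0.065. Among genes outside the rDNA, 25.8% were lower and 5.38% higher on this scale.

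The split followed the position of the ends. RDN5-1 and RDN5-6 each held 49.5% to 50.5% of the ends at position 121 in every library, and each of the 4 others held 0.0183% or less. Position 121 was counted from the first base in every copy, so these 4 low shares do not come from their shorter annotation. Of the internal ends each copy held between 16.0% and 17.5%, close to an even split over 6 genes. Every read that ended in a 5S gene had a mapping quality of 0 in every library, which marks a read that fits several places equally well. A read that matches several copies was therefore placed on one of them by the aligner, and the copies are not independent measurements. The fall of RDN5-1 and RDN5-6 restates the fall near the mature end, and no copy was shown to act on its own.

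**Figure D3:**
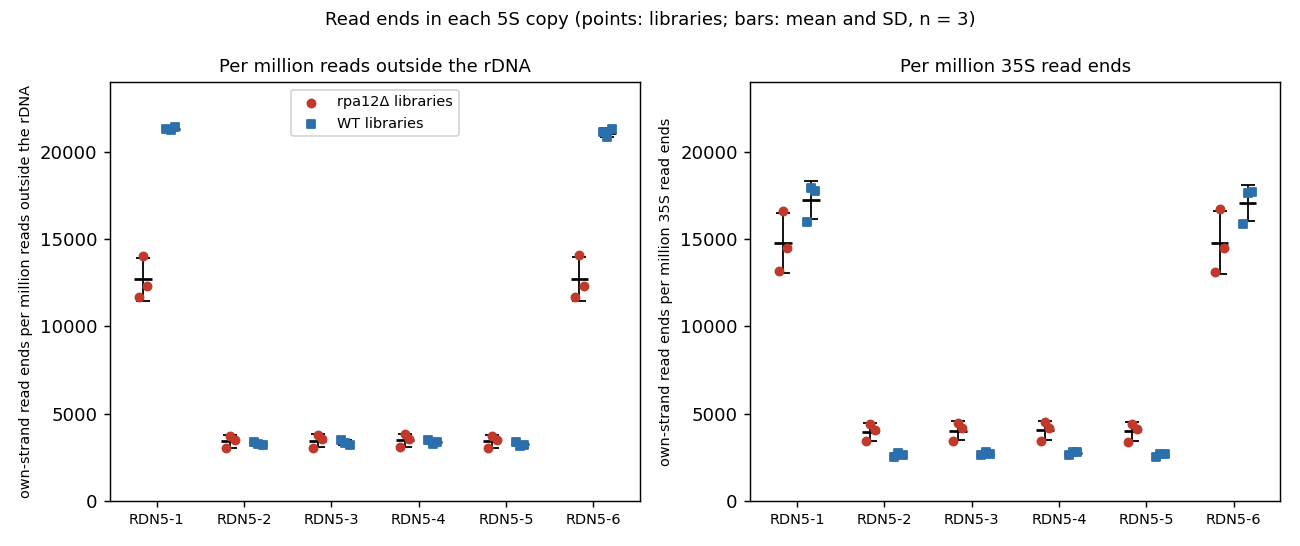
Own-strand read ends in each 5S copy per 1000000 reads outside the rDNA (left) and per 1000000 35S read ends (right), with rpa12Δ libraries as circles, WT libraries as squares and the mean and SD (n = 3) in black. RDN5-1 and RDN5-6, annotated 121 bases long, hold most ends, and the 4 copies annotated 119 bases long lie far below them in every library.

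Per 1000000 35S read ends each copy kept its direction, but the calls fell on other copies. RDN5-2 to RDN5-5 were higher in rpa12Δ, averaging 3973 to 4052 in rpa12Δ and 2627 to 2721 in WT (log2 differences 0.57 to 0.59, limma adjusted p = 0.000805 to 0.00123). With distinct intervals counted once these 4 calls were lost (log2 differences 0.16 to 0.19, adjusted p = 0.110 to 0.165). RDN5-1 and RDN5-6 had log2 differences of −0.23 and −0.21, which did not pass the threshold (adjusted p = 0.193 and 0.226). On this scale 30.5% of genes outside the rDNA were higher and 10.6% lower, against 4 and 0 of the 6 copies.

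Past the mature end, many read ends could be placed on 1 of the 6 annotated copies, RDN5-1. Such a placing holds among the annotated copies only, and the paper counts far more rDNA copies in yeast. Of the own-strand ends in the 50 nt after RDN5-1, 440 of 604, 401 of 581 and 403 of 551 had a mapping quality above 0 in the rpa12Δ libraries, and 128 of 207, 91 of 148 and 80 of 134 in the WT libraries. These counts take in positions 122 to 126, which the extended class leaves out. The highest position after the gene was 122 in both strains. A smaller peak lay 11 and 12 nt past the last base of RDN5-1, at positions 132 and 133. Position 133 had 89, 76 and 70 ends at RDN5-1 in the rpa12Δ libraries and 24, 15 and 12 in the WT libraries. The peak stood at the same place in both strains, and few ends lay beyond position 144.

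Ends from position 127 to 171 numbered 88.5, 76.4 and 76.6 per 1000000 reads outside the rDNA in the rpa12Δ libraries and 65.6, 51.8 and 56.6 in the WT libraries, over the 6 copies. The log2 difference was 0.47 (limma adjusted p = 0.0391). The groups did not overlap, but the call was lost when 5 of the 6 libraries were left out 1 at a time, with adjusted p between 0.0571 and 0.128. Only the fit without WT replicate 1 kept it (adjusted p = 0.0334). Per 1000000 35S read ends the values were 99.7, 90.5 and 90.2 in the rpa12Δ libraries and 49.2, 43.8 and 47.0 in the WT libraries, a log2 difference of 0.99 (limma adjusted p = 2.11e-05). For each 1000 ends near the mature end of RDN5-1 there were 9.57, 6.85 and 8.14 extended ends in the rpa12Δ libraries, against 3.31, 2.49 and 2.68 in the WT libraries (exact two-sided permutation test, p = 0.1). This ratio also holds the fall of the ends it is divided by (log2 difference −0.97 over the 6 copies per 1000000 reads outside the rDNA). Those within the gene had a mapping quality of 0, so their placing on RDN5-1 was the aligner's choice. Extended ends were a small class in both strains, with 0.176% to 0.248% of the window in rpa12Δ and 0.0936% to 0.116% in WT.

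**Figure D4:**
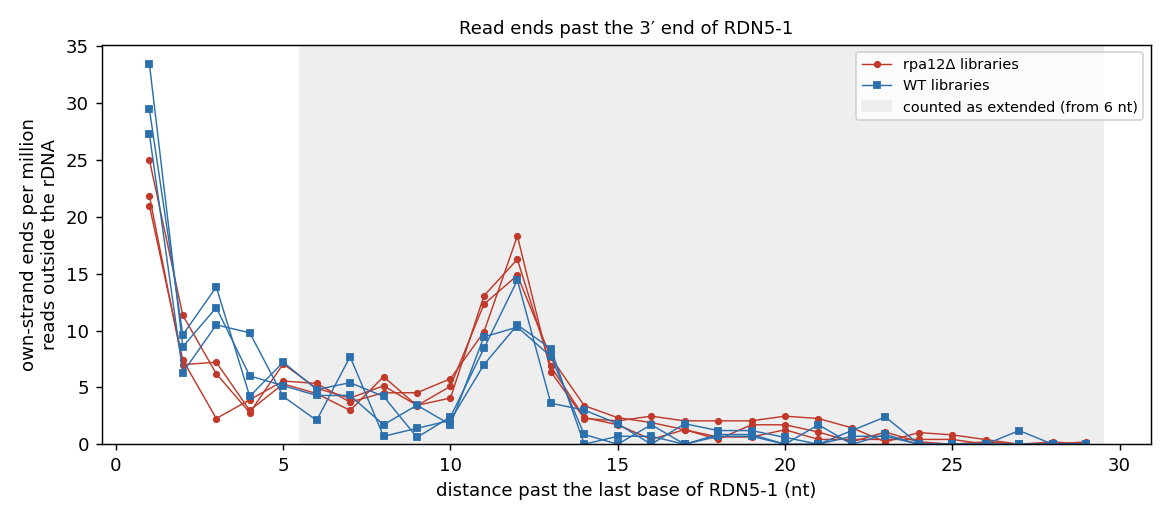
Own-strand read ends per 1000000 reads outside the rDNA at each position past the last base of RDN5-1, with rpa12Δ libraries as circles and WT libraries as squares. The shaded stretch was counted as extended, and both strains are highest 1 nt past the gene, with a smaller peak 11 to 12 nt past it.

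The whole 50 nt after the annotated genes, in which the first few bases dominate, gave another picture. It had 170, 174 and 160 ends per 1000000 reads outside the rDNA in the rpa12Δ libraries and 245, 211 and 228 in the WT libraries, a log2 difference of −0.44 (limma adjusted p = 0.0222). Without WT replicate 1 or 3, or rpa12Δ replicate 2 or 3, that call was lost (adjusted p = 0.0558 to 0.0938). Per 1000000 35S read ends the log2 difference was 0.086 (adjusted p = 0.621), and with distinct intervals counted once on that scale it was called higher, at 0.35 (adjusted p = 0.0433). Positions 124 and 125 were among those lower in rpa12Δ as shares of the 5S ends. The 50 nt before the genes were almost empty, with 6.59, 6.42 and 6.16 ends per 1000000 in the rpa12Δ libraries and 2.41, 4.90 and 7.72 in the WT libraries. The highest position there was −2 in rpa12Δ and −9 in WT, with 8 and 2 reads at most in a library.

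On the opposite strand, which Pol I reads, the 5S genes had 252, 302 and 264 ends per 1000000 reads outside the rDNA in the rpa12Δ libraries and 6.62, 9.10 and 11.2 in the WT libraries (log2 difference 4.80, limma adjusted p = 1.72e-10). The WT values rest on only 11, 13 and 13 read ends over the 6 genes, so the size of the difference is loosely set. For each 1000 own-strand ends there were 7.08, 6.98 and 6.81 ends on the opposite strand in the rpa12Δ libraries, and 0.118, 0.165 and 0.200 in the WT libraries, so that the own strand carried nearly all ends of the genes in both strains.

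The mature-end share was set beside that of other RNA polymerase III transcripts in the same libraries. For the 275 nuclear tRNA genes, ends within 5 nt of the annotated 3′ end made up 65.1%, 68.6% and 62.8% in the rpa12Δ libraries and 62.6%, 67.3% and 62.9% in the WT libraries, which overlapped (exact permutation p = 0.6). SNR52, a box C/D snoRNA, stood at 98.5% to 98.6% in rpa12Δ and 98.6% to 99.0% in WT. RPR1, the RNA of RNase P, had 35.7%, 35.7% and 28.4% in the rpa12Δ libraries and 48.8%, 53.3% and 45.7% in the WT libraries, without overlap (exact permutation p = 0.1), from 442 to 468 ends in rpa12Δ and 81 to 125 in WT. SNR6, the U6 RNA, and SCR1, the RNA of the signal recognition particle, overlapped between strains. SNR6 stood at 53.3%, 49.1% and 41.8% in the rpa12Δ libraries and 50.0%, 53.7% and 53.8% in the WT libraries, and SCR1 at 22.0%, 20.5% and 17.8% in the rpa12Δ libraries and 20.3%, 24.5% and 25.2% in the WT libraries. The difference between these RNAs and 5S was not tested.

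**Figure D5:**
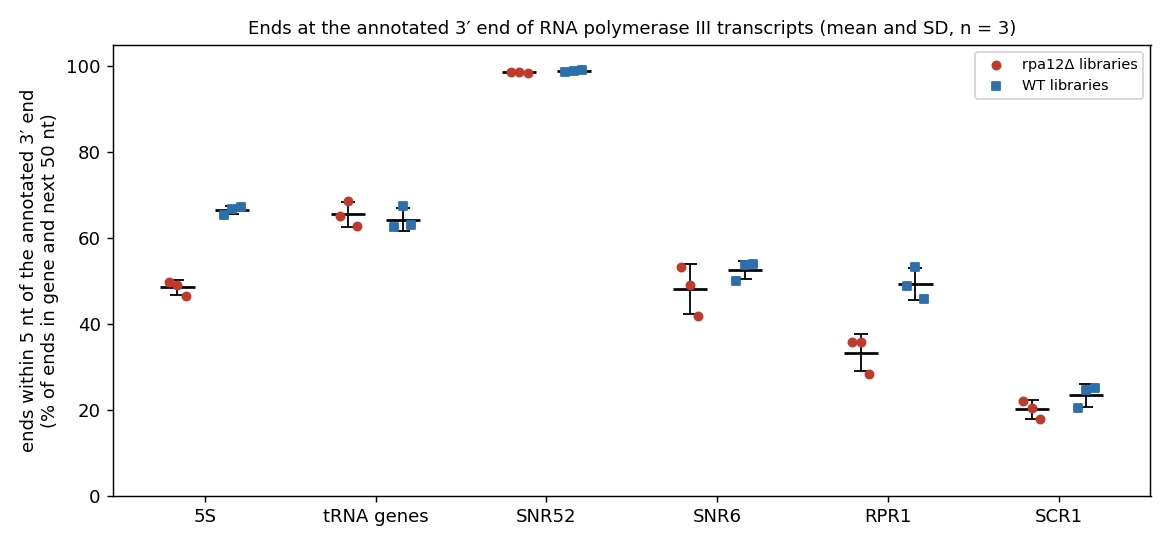
Share of read ends within 5 nt of the annotated 3′ end among ends in the gene and the next 50 nt, for 5S and other RNA polymerase III transcripts, with rpa12Δ libraries as circles, WT libraries as squares and the mean and SD (n = 3) in black. The strains stand apart for 5S and RPR1 and overlap for the tRNA genes, SNR6 and SCR1.

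The levels of these RNAs did not move together. Per 1000000 reads outside the rDNA, SCR1 had 3371, 3479 and 3873 ends in the rpa12Δ libraries and 2793, 2625 and 2413 in the WT libraries, and it rose by 0.45 on the log2 scale (limma adjusted p = 0.00389). RPR1 and SNR6 rose by 0.66 and 0.64 (adjusted p = 0.00739 and 0.0126). SNR52 had 8613, 7149 and 7646 in the rpa12Δ libraries and 10766, 10535 and 11139 in the WT libraries, a log2 difference of −0.47 (adjusted p = 0.00137), in the direction of 5S. Per 1000000 35S read ends SCR1, RPR1 and SNR6 differed by 0.98, 1.17 and 1.15, and SNR52 by 0.051 (adjusted p = 0.777).

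Of 36 genes for the proteins that make, bind or trim 5S RNA, 20 had enough reads to be tested and 1 was called per 1000000 reads outside the rDNA, higher in rpa12Δ, beside 5.38% higher and 25.8% lower among all genes tested. It was RPO26, which encodes a subunit shared by all 3 nuclear RNA polymerases, with 16.1, 13.5 and 15.7 in the rpa12Δ libraries and 6.01, 8.40 and 9.44 in the WT libraries (log2 difference 0.86, limma adjusted p = 0.0162). SNR6 and RPO26 lost their calls with reads of at least 25 nt (adjusted p = 0.132 and 0.0861) and without rpa12Δ replicate 2 (0.0509 and 0.0535) or rpa12Δ replicate 3 (0.0911 and 0.0702), and RPO26 also without WT replicate 1 (0.0632). RPL5, whose protein carries 5S RNA, had 192, 206 and 192 in the rpa12Δ libraries and 223, 221 and 222 in the WT libraries, a log2 difference of −0.17 that did not pass (adjusted p = 0.323). LHP1, for the La protein, differed by 0.046 (adjusted p = 0.896). The median over the 20 genes was −0.089, beside −0.26 over all genes tested.

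Per 1000000 35S read ends, 7 of these 20 genes were higher and 0 lower, beside the 30.5% and 10.6% of all genes. The 7 were RPO26 (log2 difference 1.33), RPF2 (1.02) and SYO1 (0.83), which handle the 5S RNP on its way into the ribosome in the case of the last 2, RPC40 (0.88) of the core shared by Pol I and polymerase III, TFC3 (0.68) of TFIIIC, RPL11A (0.48) and RPL5 (0.35). Only RPO26 was called on both scales. The median over the 20 genes was 0.43, beside 0.24 over all genes tested. The other 16 genes of the list, PZF1, MAF1 and the trimming enzyme gene REX1 among them, had too few reads to be tested.

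The genes whose level over the 6 libraries was most like that of the 5S sum were RPS10B, SNR64, RPS7B, EGD1 and SNR39, with a root mean square difference of 0.064 to 0.076 on the centred log2 scale. They differed by −0.56, −0.48, −0.41, −0.38 and −0.62 between the strains per 1000000 reads outside the rDNA. RPS10B and RPS7B encode ribosomal proteins, SNR64 and SNR39 are box C/D snoRNAs and EGD1 encodes part of the nascent polypeptide-associated complex. These genes were picked for likeness to 5S in the same libraries, so a strain difference near that of 5S follows from the choice. RPS10B, SNR64 and SNR39 passed the limma threshold (adjusted p = 0.0232, 0.000787 and 0.000283), and RPS7B and EGD1 did not (adjusted p = 0.105 and 0.101). RPS10B passed only with all 6 libraries or without rpa12Δ replicate 1 or WT replicate 3. With distinct intervals counted once, RPS10B and SNR64 were not called (−0.039 and −0.20, limma adjusted p = 0.865 and 0.155). SNR39 kept its call there (−0.52, limma adjusted p = 0.00238).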

How the data were processed

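Reads were trimmed and aligned by the authors, who deposited each library as 1 line per aligned read with start, end and strand. The score they deposited is a mapping quality from 0 to 60. Their processing notes name bcl2fastq 2.18.0.012, Trim Galore 0.4.1, BWA 0.6 and SAMtools 1.3.1, without roles. The genome build is not given in the sources used here, and chromosome names and gene ends fit R64.

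Read 5′ ends, which mark RNA 3′ ends, were counted per gene and position on the transcript's strand with Python 3.11.15. They were divided by reads outside chromosome XII 451418 to 490526 or by Pol I-strand ends at 460831 to 467569. Strains were compared with limma 3.58.1 in R 4.3.3 on log2(per 1000000 + 1), with a variance trend and Benjamini-Hochberg adjustment at 0.05, for features with a mean of at least 10 per 1000000. For positions, the 6 copies were summed. Single measures had an exact permutation test. The 3 libraries of each strain were biological replicates, as the study states. PCR copies could not be removed.

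The members, the pathway list and the naming rules (copies, other polymerase III RNAs, called list genes, 5 most alike genes, highest positions, 5 largest rises and falls among positions of at least 1000 per 1000000 5S ends in either strain that ran the same way between libraries of the same number) were chosen with earlier results of these data known. The classes of internal, mature and extended ends as levels, and the internal scale, were added after seeing the data. The fits were tested on simulated data. Alternatives changed pseudocount, filter, denominator, reads, copies, test and replicates. No DNA or RNA sequence was used here.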

Additional observations from a re-analysis of the deposited data

How the results depend on the processing

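The fall of the 5S sum per 1000000 reads outside the rDNA was not called with all reads as denominator (log2 difference −0.13) or with 35S ends away from mature rRNA ends (−0.15), and it ranged from −0.59 to −0.44 with single libraries left out. Per 1000000 35S ends the sum, at 0.014, turned to −0.036 with reads of at least 25 nt, −0.089 with RDN5-1 and RDN5-2 only, −0.13 per all reads, −0.67 per tRNA end (called) and −0.15 with 35S ends away from mature ends, and ranged from −0.074 to 0.10 with single libraries left out. The mature-end share stayed between −19.2 and −16.6 percentage points under every alternative except distinct intervals, which gave −3.20.

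Counting distinct intervals once removes most reads of so abundant an RNA (56880 reads in RDN5-1 of rpa12Δ replicate 1 became 2642 intervals). Internal ends then differed by −0.60 per 1000000 reads outside the rDNA, RDN5-2 to RDN5-5 by −0.61, −0.63, −0.62 and −0.64, RPS7B by 0.039 and EGD1 by 0.18. RDN5-1 and RDN5-6 differed by 0.15 and 0.13 per 1000000 35S ends, position 49 by −0.19, and the positions split into 42 higher and 36 lower. The cause was not tested.

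With single libraries left out, internal ends ranged from 0.039 to 0.19 and extended ends from 0.39 to 0.56 per 1000000 reads outside the rDNA, and ends near the mature 3′ end from −0.54 to −0.37 per 1000000 35S ends. RDN5-2 to RDN5-5 ranged from −0.010 to 0.14, −0.022 to 0.13, −0.030 to 0.13 and −0.0036 to 0.15. With every gene that had a read, extended ends were at 0.47 (limma adjusted p = 0.0537). The list of 40 genes gave 5 calls, 12 with distinct intervals, 10 per 35S ends and 3 to 6 with single libraries left out. Of the positions, 92 were called, and 51 per internal end.

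The replicate numbers follow the order of deposit and share only a number (correlations of deviations 0.17, 0.014 and −0.023). With the replicate block the 5S sum stayed at −0.51 (adjusted p = 3.20e-06), 87 positions and 5 list genes were called.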
